A study of Mus musculus with 16 samples.

Results

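Hbb.bs and Hbb.bt are the rows of the adult beta-globin genes Hbb-bs and Hbb-bt in a table of contralesional motor cortex, the hemisphere opposite a stroke. They were taken by name, as markers of red blood cell RNA in dissected tissue, and are 2 of the 417 genes that the table lists. The animals were 8 C57Bl6 mice, all of which had undergone stroke, and messenger RNA of their primary motor cortex was sequenced. After a test on a horizontal rotating beam, the labels call animals 6, 23 and 28 recovered (n = 3) and animals 17, 19, 20, 21 and 29 non-recovered (n = 5). Age, sex, lesion method, time after stroke and any perfusion of the brain are not stated in the labels, and no unlesioned mouse enters these comparisons. The corresponding table of the lesioned hemisphere lists 263 genes and holds neither row, so beta-globin was not analysed there.

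Haemoglobin is the oxygen carrier of red blood cells and is built from alpha and beta chains. C57Bl6 mice make their adult beta chains from Hbb-bs and Hbb-bt, neighbouring copies in the beta-globin cluster that are transcribed in maturing red cells. Mature mouse red cells have no nucleus, but young ones still carry globin messenger RNA. A piece of brain therefore yields globin reads from the blood held in its vessels, and low globin expression in some neurons and glia has also been described.

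Hbb-bs (ENSMUSG00000052305.6) lies on mm10 chromosome 7 from 103826534 to 103828096, minus strand, and its annotated exons cover 768 nt. Hbb-bt (ENSMUSG00000073940.3) lies downstream of it on the same strand, from 103812524 to 103813996, with 703 nt of exons. The last part of the Hbb-bs coding sequence is shown because it bears on how far reads can be assigned to either gene. The single capital marks the only position of the whole coding sequence at which Hbb-bt differs, C417T, counted from 1 at the first base of the start codon and written with the Hbb-bs base first.
Hbb-bs coding sequence, bases 295 to 444: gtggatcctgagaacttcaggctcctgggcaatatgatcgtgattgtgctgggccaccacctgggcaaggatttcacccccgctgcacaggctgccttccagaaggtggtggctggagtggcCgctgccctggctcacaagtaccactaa

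The coding sequences thus matched at 443 of 444 bases. The 3′ untranslated regions, of 131 and 132 nt, matched over 69.4% of their alignment. The 5′ ones are annotated at 53 nt in Hbb-bs and 127 nt in Hbb-bt. Of all stretches of 50 nt in the main Hbb-bs transcript, 34.2% did not occur in that of Hbb-bt, and 41.7% of those in Hbb-bt did not occur in Hbb-bs. At 100 nt these shares were 37.4% and 45.2%. The longer annotated 5′ end of Hbb-bt adds to its share, which thus depends on where its message is taken to start. Most stretches are therefore common to both messages. The read length, the counting tool and its treatment of reads that fit several places are not stated in the labels, so the split of reads between the genes is uncertain and their sum is given beside each.

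The promoters of the genes are alike but not identical, with 71.3% identity over 250 bases before to 50 after the RefSeq start. The stretches below hold the motif letters known from adult beta-globin promoters (the box spelled CACCC, the box spelled CCAAT, and the TATA box, searched as TATAA). They are printed to show where the promoters are alike, and any part of them in the levels measured here was not tested. Capitals mark these letters on either strand (ATTGG is CCAAT on the other one), and none overlap one another. The first stretch of each gene ends 65 bases before the RefSeq start and the second ends 16 bases before it (RefSeq on GRCm38.p6, minus strand, chr7:103827993-103828038 and chr7:103827944-103827970 for Hbb-bs, chr7:103813988-103814033 and chr7:103813939-103813965 for Hbb-bt).
Hbb-bs, upstream boxes: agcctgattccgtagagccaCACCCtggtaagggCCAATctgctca
Hbb-bt, upstream boxes: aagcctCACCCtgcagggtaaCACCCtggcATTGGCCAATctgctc
Hbb-bs, TATA box: ccagggcagagcaTATAAggtgaggta
Hbb-bt, TATA box: gccagcATTGGgtaTATAAagctgagc

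Both genes hold TATAA just ahead of the RefSeq start, from 29 bases before it in Hbb-bs and 28 in Hbb-bt. The GENCODE annotation used for the gene spans above starts Hbb-bs 168 and Hbb-bt 73 bases further upstream. The printed stretches therefore lie wholly or partly inside those spans. CCAAT on the given strand begins 76 and 75 bases before the start, and a CACCC 90 and 89 bases before it. Hbb-bt has further copies of CACCC at 104 and 140 bases. AGATAA, letters bound by GATA factors, occurs 210 bases before the Hbb-bs start and on neither strand of the Hbb-bt window. Among 32851 mouse promoter windows of 300 bases, searched on both strands, TATAA occurred in 24.9%, CCAAT in 37.4%, CACCC in 57.5% and AGATAA in 11.2%. These matches are letters in a window and were not measured as binding.

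The libraries were scaled by totals of 17972791 to 27895465 reads, lowest in recovered animal 28. The deposited log2 values could be solved for whole reads, and CPM below means those reads per 1000000 of the total, without the prior count that the log2 values contain. The library of animal 23 stands apart in 2 ways. Its description code has another prefix than the other contralesional libraries. Longer listed genes also read lower in it: centred on the mean of each gene, its log2 level changed by -0.11 per doubling of exonic length. That slope rests on the listed genes only, a limit taken up below with gene length. The titles and description codes also disagree across hemispheres on which recovered animal is 6 and which is 23, a conflict that leaves the groups as they are. Of 18 fixed marker genes of cortical neurons only the somatostatin gene Sst is listed, so the tissue label could not be checked against the others here.

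Hbb.bs was present in every library, with higher levels in the recovered group. In the recovered animals it stood at 5.18 CPM in animal 6, 7.07 in animal 23 and 10.6 in animal 28, from 114, 181 and 190 reads. In the non-recovered animals it stood at 2.75 CPM in animal 20, 3.71 in animal 19, 4.59 in animal 17, 4.82 in animal 21 and 5.65 in animal 29, from 73 to 155 reads. The groups overlapped by a single library on each side: animal 29 lay above animal 6, while 2 of 3 recovered animals lay above all non-recovered ones. The means were 7.61 ± 2.74 CPM (SD, n = 3) and 4.31 ± 1.11 CPM (SD, n = 5).

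Hbb.bt gave far fewer reads and a similar picture. It stood at 1.06 CPM in animal 23, 1.09 in animal 6 and 1.78 in animal 28, from 27, 24 and 32 reads. In the non-recovered animals it stood at 0.264 CPM in animal 20, 0.359 in animal 19, 0.609 in animal 17, 0.877 in animal 21 and 1.20 in animal 29, from 7, 9, 17, 18 and 33 reads. Animal 28 alone lay above all non-recovered animals, and animal 29 above the remaining recovered ones. The means were 1.31 ± 0.41 CPM (SD, n = 3) and 0.663 ± 0.385 CPM (SD, n = 5).

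**Figure D1:**
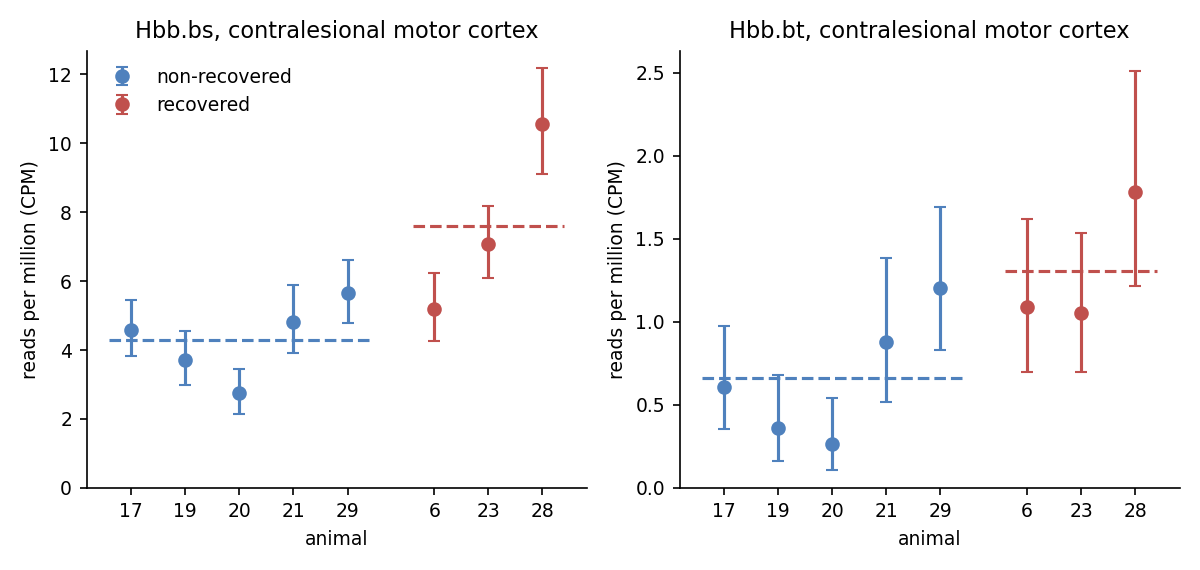
Reads of Hbb.bs (left) and Hbb.bt (right) per 1000000 in each of the 8 contralesional libraries, by animal, with exact 95% Poisson intervals for counting error as bars and group means as dashed lines. Recovered animal 28 is highest for both genes, and non-recovered animal 29 lies above recovered animal 6 for both.

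On the deposited log2 scale, the recovered group was higher by 0.79 ± 0.26 (SE) for Hbb.bs and by 1.02 ± 0.40 for Hbb.bt, which correspond to 1.73-fold and 2.03-fold. The 95% intervals, which rest on limma's moderated errors, ran from 0.20 to 1.38 and from 0.11 to 1.93. Neither gene passed limma's moderated test after Benjamini-Hochberg adjustment over the 417 listed genes (adjusted p = 0.0567 and 0.0590), where 7.91% of the listed genes did, 1.92% of them as higher in recovered animals. Unadjusted, both had p under 0.05 in the moderated test (0.0147 and 0.0313), as did 25.7% of the listed genes in that direction and 73.4% in either. Without moderation, the linear model gave SE of 0.32 for Hbb.bs and 0.49 for Hbb.bt. Its unadjusted p was then 0.0476 for Hbb.bs and 0.0830 for Hbb.bt, so Hbb.bt depended on the moderation. The smallest absolute log2 fold change of a listed gene was 0.12, so the table appears to hold genes selected on this same comparison, and these p-values are not independent evidence for the 2 genes.

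Summed over both genes, beta-globin stood at 12.4 CPM in animal 28 (exact 95% Poisson interval 10.8 to 14.1) and 8.13 in animal 23 (7.06 to 9.31). Then came non-recovered animal 29 with 6.85 (5.91 to 7.91) and recovered animal 6 with 6.27 (5.27 to 7.41). Animals 21, 17, 19 and 20 followed with 5.70 (4.72 to 6.83), 5.20 (4.39 to 6.12), 4.07 (3.32 to 4.94) and 3.01 CPM (2.39 to 3.75). Only animal 28 had an interval clear of its neighbour in this order; each other neighbouring pair overlapped. These intervals cover counting error alone.

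The summed level was 3.10 ± 0.49 log2 CPM in recovered (SD, n = 3) and 2.26 ± 0.46 in non-recovered animals (SD, n = 5), a difference of 0.84 or 1.79-fold. The exact permutation test (56 arrangements of the libraries) gave p = 0.0714, 2-sided, with 0.0179 the smallest possible. On linear CPM, a scale added after seeing the data, the means were 8.92 ± 3.12 and 4.97 ± 1.48, a ratio of 1.79. The same exact permutation test then gave p = 0.0357. The difference is thus on either side of 0.05 according to the scale. Both p-values come from rows that appear selected on this same comparison, so they are not independent evidence either. More blood in the piece of tissue and more globin RNA per cell cannot be told apart in such bulk samples.

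Separate animals differ by more than read counting, so the spread inside groups was set beside counting error as a description. For Hbb.bs the variance among libraries, relative to that of counting alone, was 19.7 in the recovered and 7.58 in the non-recovered group. For Hbb.bt, with 83 and 84 reads in all, it was 2.60 and 5.90, and a ratio of 2.60 over 3 libraries is not clearly apart from counting error. The SD of the log2 values within groups was 0.44 for Hbb.bs and 0.68 for Hbb.bt, against a median of 0.14 over all listed genes. In that spread they ranked 11 and 3 of 417. They also ranked 3 and 1 among rises, around Trhr, the thyrotropin-releasing hormone receptor gene, at 0.85 ± 0.25 (SE).

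Next in the order of rises, each by a smaller amount, were Dcaf12l2 (0.57 ± 0.22), the adaptor protein gene Skap1 (0.54 ± 0.21), the forkhead factor gene Foxo6 (0.50 ± 0.14) and the phosphatidylcholine transfer protein gene Pctp (0.49 ± 0.12). Pctp was past the adjusted threshold (limma adjusted p = 0.0469) and Dcaf12l2, Skap1 and Foxo6 were not. The SD of Pctp within groups was 0.17. The globin genes thus had larger mean differences than Pctp but a wider scatter between animals. Hbb.bt had the lowest mean level of all listed genes, at -0.20 log2 CPM.

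The size of the difference and its place against the threshold depended on single libraries. Animal 28 had the lowest total but the most beta-globin reads (222 of both genes). Without it, the log2 fold change of Hbb.bs was 0.52 and that of Hbb.bt 0.80 (limma adjusted p = 0.107 and 0.136). The summed difference was then 0.58 (exact permutation p = 0.190). Without non-recovered animal 29, both passed, at 0.90 and 1.26 (adjusted p = 0.0485 and 0.0441), and without recovered animal 6 Hbb.bs passed at 1.03 (adjusted p = 0.0423). Without animal 23, whose library stands apart, they were 0.81 and 1.15 (adjusted p = 0.119 and 0.130), as large as with it. In every case both genes had the higher mean in the recovered group. The description codes of animals 28 and 29, each the highest of its group, share their first 2 numbers, as do those of non-recovered animals 19, 20 and 21. What these numbers stand for is not stated in the labels. Animals 28 and 29 are the only recovered and non-recovered ones with such a shared code, and animal 28 lay above animal 29 by 0.89 for Hbb.bs, 0.54 for Hbb.bt and 0.85 for their sum on the log2 scale, a single pair with no test.

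**Figure D2:**
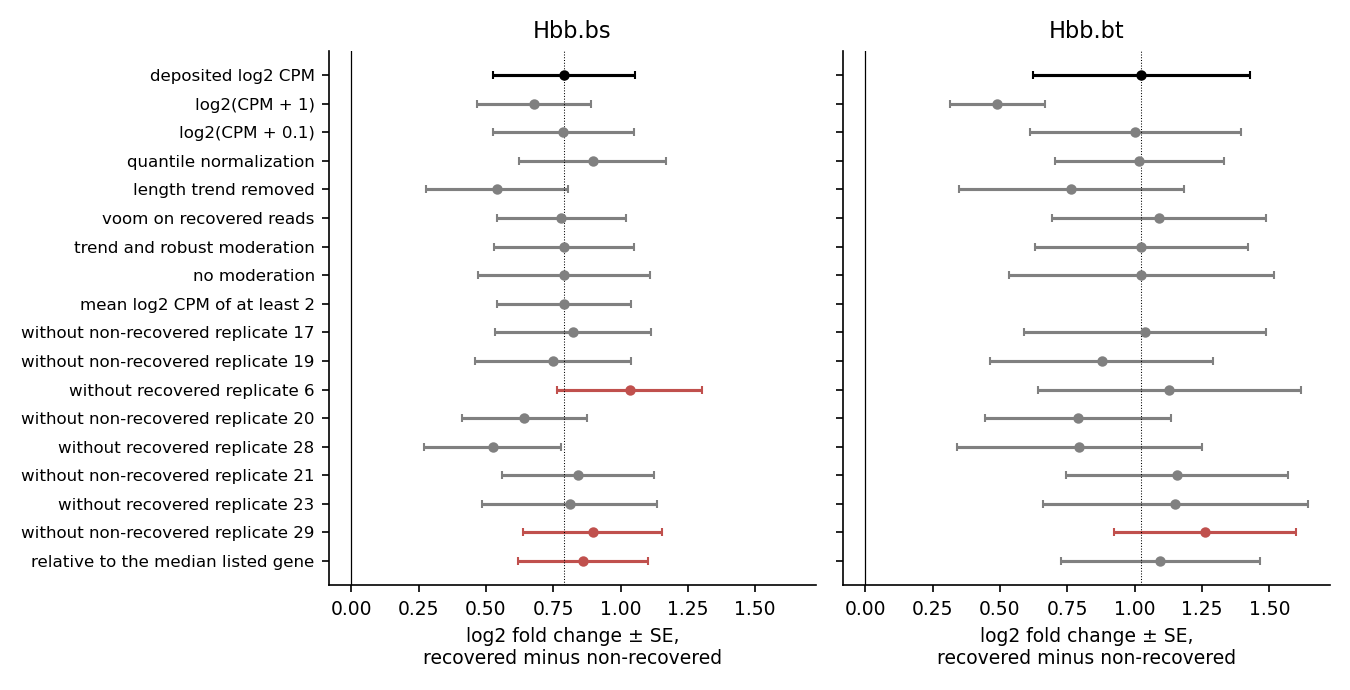
Log2 fold change of Hbb.bs (left) and Hbb.bt (right), recovered minus non-recovered, with its SE, on the deposited values (black) and under other settings; red points passed an adjusted p of 0.05. All points lie right of 0, and the lowest for Hbb.bs is 0.52, without animal 28; Hbb.bt has no point at a mean log2 CPM of at least 2, a level it does not reach.

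The balance between the genes was examined next, since a common rise leaves it unchanged. Hbb.bt made up 17.4% of beta-globin reads in animal 6, 14.4% in animal 28 and 13.0% in animal 23. In the non-recovered animals it made up 17.6% in animal 29, 15.4% in animal 21, 11.7% in animal 17, 8.82% in animal 19 and 8.75% in animal 20. The recovered values lay inside the range of the non-recovered ones. The means were 14.9 ± 2.25% (SD, n = 3) and 12.4 ± 3.94% (SD, n = 5), a difference of 2.48 percentage points (exact permutation p = 0.357, 2-sided). The exact 95% binomial intervals were wide, from 3.59 to 17.2% in animal 20 and from 12.4 to 23.8% in animal 29, so a change in the balance of a few points would not be detectable at this depth.

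**Figure D3:**
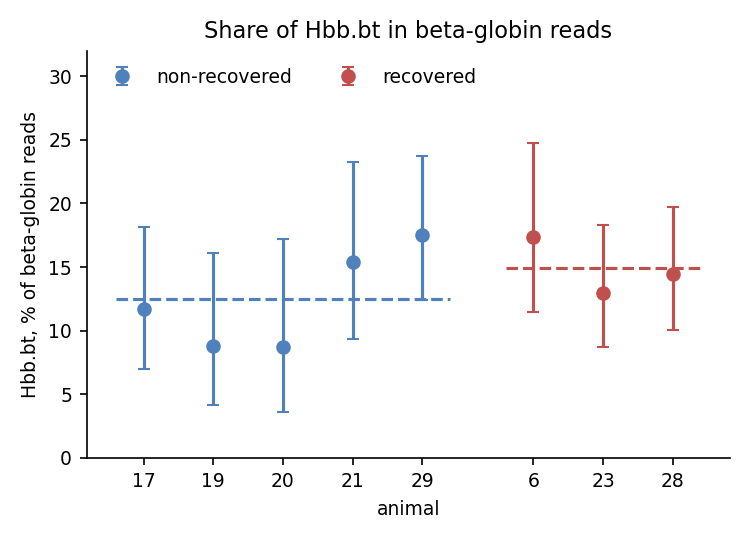
Hbb.bt reads as a percentage of Hbb.bs plus Hbb.bt reads in each library, with exact 95% binomial intervals as bars and group means as dashed lines. The recovered animals, at 13.0 to 17.4%, lie within the span of the non-recovered ones, 8.75 to 17.6%.

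Per 1000 nt of exon, Hbb.bs stood at 9.91 ± 3.56 CPM in recovered (SD, n = 3) and 5.61 ± 1.45 in non-recovered animals (SD, n = 5). Hbb.bt stood at 1.86 ± 0.58 and 0.942 ± 0.547 on the same scale. Hbb.bs therefore had the higher level per length in both groups. In reads, each library held 4.70 to 10.4 of Hbb.bs for each of Hbb.bt. Reads common to both messages may have been given to either gene or to none.

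Library by library, the genes moved together also inside the groups. After each group's mean was subtracted from its libraries, the log2 levels of Hbb.bs and Hbb.bt had r = 0.87 over the 8 libraries, given as a description because the genes share sequence and libraries. Animals 28, 29, 21 and 17 lay above their group's mean for both genes, and 6, 23, 19 and 20 below it for both. Measured the same way against the summed beta-globin level, the median r of the 415 other listed genes was 0.01.

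The gene with the most similar pattern inside groups was Creb3l1, a transcription factor gene of the endoplasmic reticulum membrane (r = 0.88 over 8 libraries). It stood at 1.73, 1.94 and 2.09 log2 CPM in animals 6, 23 and 28. In the non-recovered animals 20, 17, 19, 21 and 29 it stood at 1.21, 1.35, 1.50, 1.66 and 1.75 log2 CPM. Its highest library was animal 28 and its highest non-recovered one animal 29. It was picked for following beta-globin inside groups, so this order is not a separate result.

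Also among the most similar were Itpkc, an inositol trisphosphate kinase gene (r = 0.81), the activity-dependent transcription factor gene Npas4 (0.78) and Fam43b (0.77). Npas4 differed in the other direction between groups, by -1.06 ± 0.44 (SE) on the log2 scale, while Creb3l1, Itpkc and Fam43b were higher in recovered animals by 0.42, 0.27 and 0.20. The most opposite pattern inside groups was that of Hs3st1, a heparan sulphate sulphotransferase gene (r = -0.98). It was lowest in animal 28, at 4.07 log2 CPM, and highest in animal 20, at 4.73, the libraries with the most and the least beta-globin. Ccdc17 (-0.94), the ephrin receptor gene Epha8 (-0.85), the methyltransferase gene Inmt (-0.85) and the cytochrome c oxidase assembly gene Cox16 (-0.83) came after it. These genes were picked as the extremes of 415 over 8 libraries. Their likeness or opposition to beta-globin is thus not a separate result and describes these libraries only.

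Other genes of red cells and vessels could not be set beside beta-globin. A fixed list held 36 haemoglobin and red cell gene symbols, some of them alternative names of the same gene. It includes the alpha-globin genes, the haem enzyme gene Alas2 and the membrane gene Slc4a1. Of these symbols the table lists Hbb.bs and Hbb.bt only. None of 15 haem synthesis genes, 21 genes of haem and iron clearance, 4 other globins, 20 endothelial, 14 mural cell, 19 leukocyte, 13 platelet, 16 microglial and macrophage or 9 choroid plexus genes is listed. The values of those genes were not analysed here, so whether they moved with beta-globin was not tested.

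Fibroblast and striatal markers that the table lists had negative differences. Of 16 meningeal fibroblast genes 3 are listed, all with lower means in recovered animals, as are 270 of the 417 listed genes. Of the 3, 1, the matrix Gla protein gene Mgp (-0.40 ± 0.09, SE), passed limma's adjusted threshold as lower, as did 6.00% of all listed genes. Their summed level was 66.0 to 90.7 CPM in recovered and 88.1 to 104 CPM in non-recovered animals, with its lowest value in animal 28, the library highest in beta-globin. Of 16 striatal projection neuron genes 10 are listed, with a median of -0.60 against -0.19 over all 417 listed genes. Of the 10, 6 had an unadjusted limma p under 0.05 as lower, near the 47.7% of all listed genes that did. The receptor gene Gpr6 (-0.71 ± 0.18) alone among the 10 passed the adjusted threshold. Their summed level was 210 to 232 CPM in recovered and 254 to 307 CPM in non-recovered animals, without overlap and lowest among the latter in animal 29. The part of dissection or cell makeup in the beta-globin difference was not tested.

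Of 17 hypoxia-responsive gene symbols 3 are listed, and none had an unadjusted limma p under 0.05, where 73.4% of all listed genes did. They are the vascular growth factor gene Vegfa (0.27 ± 0.14, SE), the lactate dehydrogenase gene Ldha (0.16 ± 0.08) and Hif3a (-0.47 ± 0.22). Sst stood at 0.14 ± 0.07 and did not pass either.

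Among the listed genes, length moved with the groups. The change of log2 level per doubling of exonic length was -0.015, -0.045 and -0.11 in recovered animals 6, 28 and 23. It was 0.024 to 0.044 in the 5 non-recovered ones. These slopes were fitted on the listed genes alone, which appear selected on this same comparison. A length difference between listed genes that rose and fell would by itself set the slopes apart by group. Whether length acts on the libraries at large was therefore not tested. Beta-globin genes lie at the short end, ranking 3 and 5 from the shortest of 413 genes with a length, against a median of 5244 nt. Only 4 other listed genes are under 1000 nt. The proteasome assembly gene Psmg4 (0.45 ± 0.15, SE), the RNA-binding protein gene Lsm10 (0.32 ± 0.12) and Sst had higher means in recovered animals, and the calcium-binding protein gene S100a11, the shortest of all, had a lower one (-0.44 ± 0.12). With each library's trend on length over the listed genes removed, Hbb.bs was at 0.54 ± 0.26 and Hbb.bt at 0.76 ± 0.42 (limma adjusted p = 0.128 and 0.159). The summed difference was then 0.57 (exact permutation p = 0.161).

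**Figure D4:**
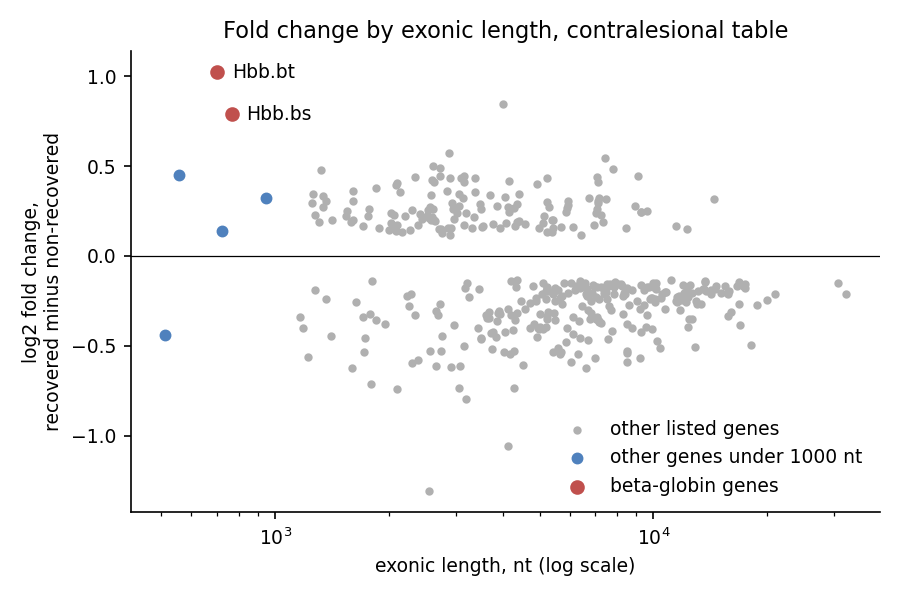
Log2 fold change of each listed gene with an annotated length (recovered minus non-recovered) against its exonic length on a log axis. Hbb.bt and Hbb.bs, at 1.02 and 0.79, lie above all 4 other genes under 1000 nt, whose values run from -0.44 to 0.45.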

How the data were processed

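RNA of both motor cortices of 8 mice was extracted with Trizol and an RNeasy kit and made into stranded TruSeq mRNA libraries, as stated in the labels' protocols. Tools named in the submitters' processing notes, with no role for any, are edgeR, STAR 2.5.1b, Trimmomatic 0.38 and bcl2fastq, with the build mm10. How reads were counted, on which annotation, and how the listed genes were selected is not given in the sources used here. The authors deposited log2 CPM values per library for 417 contralesional genes. All 3336 values came out as whole reads within 0.01, with a prior count of 2 scaled to each library, which gave reads and scaling totals; the totals may include a normalization factor. The 417 genes hold 1.53% of them.

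Libraries were grouped by title. The whole table was fitted with limma 3.58.1 (R 4.3.3) on the deposited log2 values, without a filter, and adjusted by Benjamini-Hochberg over the listed genes. Summed CPM and read shares were compared by exact permutation tests (2-sided). Animals were treated as independent; some share the first numbers of their description codes, whose meaning the labels do not give. Exonic lengths are from GENCODE M21 (GRCm38), which matched 413 of 417 symbols; the table writes hyphens as dots. Promoter sequences are from RefSeq on GRCm38.p6 (both genes matched), coding sequences from GENCODE M21.

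Genes named besides the members are listed members of 14 marker lists, the 5 nearest in fold change, the 5 most and least alike by Pearson r of log2 values after subtracting group means, and genes under 1000 nt; an item that these rules name is not reported here. The members and lists were chosen with earlier results of these data known.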

Additional observations from a re-analysis of the deposited data

Results flagged for a closer look

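Neither beta-globin gene, their sum nor their balance had a non-recovered animal far from the other four. Among all the genes named above, 6 had one whose gap to its neighbour took up most of the range of the 5 non-recovered animals; about 1 in 20 such groups is picked by chance. In 5 of the 6 it was animal 29, the non-recovered animal with the most beta-globin. Of these 5, Fam43b, Epha8 and Inmt are named because they followed or opposed beta-globin inside groups. The chance rate therefore does not apply to them. Whether that choice set animal 29 apart in them was not tested. Animal 29 was high for Fam43b (4.82 log2 CPM) and Vegfa (5.46) and low for Epha8 (2.45), Inmt (-0.37) and the fibroblast gene Islr (3.43). The sixth was the striatal gene Rasd2, low in animal 21 (6.66). The 3 recovered animals are too few for this check.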

How the results depend on the processing

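Both beta-globin genes were higher in the recovered group under each setting tried, with fold changes of 0.54 to 0.90 for Hbb.bs and 0.49 to 1.10 for Hbb.bt, the lowest for Hbb.bt on log2(CPM + 1). Changing the moderation or the adjustment cannot alter a fold change, only its error or p-value. The listed genes appear selected on this same comparison, so the shared direction is not independent evidence. Taken relative to the median listed gene of each library, a setting added for single genes after seeing the data, Hbb.bs passed at 0.86 (limma adjusted p = 0.0457). Most listed genes (270 of 417) were lower in recovered animals, and this reference itself raised each log2 fold change by 0.07. That pass is therefore no further evidence. Adjusted as if 21951 tests had been made, the number of annotated protein-coding genes, both had a limma adjusted p of 1. Genes that are not listed have no values here and were not tested. Leaving out each animal in turn gave 0.52 to 1.03 for Hbb.bs, 0.79 to 1.26 for Hbb.bt, 0.58 to 1.07 for their sum and 1.25 to 3.76 percentage points for the Hbb.bt share. The summed difference had an exact permutation p under 0.05 after quantile normalization (0.92), relative to the median listed gene (0.91, p = 0.0179) and on linear CPM (3.95 CPM, a scale added for the sum after seeing the data). Quantile normalization also takes its reference from the listed genes and raised their median log2 fold change by 0.08. Neither it nor the median reference adds independent evidence.

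The 33 listed genes past the adjusted threshold (8 higher, 25 lower) became 3 on log2(CPM + 1), 2 with trend and robust moderation and 2 at a mean log2 CPM of at least 2, a filter that leaves out Hbb.bt. They became 70 with the length trend removed (19 higher, 51 lower), 77 after quantile normalization (70 higher, 7 lower) and 108 relative to the median listed gene (82 higher, 26 lower). The count was 0 with voom on the recovered reads (356 at an unadjusted p under 0.05) and 0 without moderation (251 unadjusted). It was also 0 when the listed genes were adjusted as if 21951 tests had been made (306 unadjusted). Without single animals it ran from 0 to 74: leaving out animal 29 or 6 gave 74 or 58, leaving out 23, 21 or 28 gave 16, 10 or 6, and leaving out 19, 20 or 17 gave 3, 1 or 0 (233 unadjusted). The cause of these shifts was not tested. No paired analysis was possible because recovered and non-recovered groups share no animal number and the members are listed in a single hemisphere.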
